A study of Mus musculus with 6 samples.

Results

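The MYC family and its MAX partners were followed in mouse bone marrow-derived macrophages (BMMs), the precursors that RANKL, the cytokine ligand of the receptor RANK, turns into bone-resorbing osteoclasts. The members were the 9 genes named Myc, Mycl, Max, Mxd1, Mxd4, Mxi1, Mnt, Mlx and Mga, found by symbol among the 45706 genes of the count table, and all 9 had enough counts to be tested. mRNA was sequenced from untreated BMMs at day 0 (D0), from BMMs given RANKL for 1 day, and from BMMs given RANKL with sodium acetate for 1 day, with 2 libraries in each group. The labels give no dose, and they do not say whether the 2 libraries of a group came from separate cultures or animals, so the spread behind each p-value may be technical. No group had a day of culture without RANKL and none had another sodium salt, so RANKL cannot be told apart from the day of culture, or acetate from the salt.

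MYC, MYCL and the related MYCN are basic helix-loop-helix leucine zipper proteins that bind DNA only as pairs with MAX, at E-box sequences, and raise the transcription of genes for ribosome production, nucleotide synthesis and cell growth. The MXD proteins (among them MXD1, MXD4 and MXI1) and MNT compete for MAX at the same sites and recruit SIN3 corepressors with histone deacetylases. MLX pairs with the sugar-sensing factors MondoA (Mlxip) and ChREBP (Mlxipl), and MGA, which carries a T-box domain too, is the scaffold of the Polycomb complex PRC1.6. In the bone lineage MYC is known as a factor that RANKL induces and that osteoclast formation needs, while MYCL is best known in haematopoietic cells from dendritic cells.

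The library totals ran from 9997515 to 11254944 expected counts. Library values are given as CPM, counts scaled to a common library size by the TMM method and not divided by gene length, with replicate 1 (the first library) before replicate 2 (the second). Differences are log2 fold changes ± SE from edgeR's quasi-likelihood test on all 12224 genes that passed the low-count filter, with Benjamini-Hochberg adjustment over those genes and a call at an adjusted p under 0.05. The macrophage label was checked against 10 macrophage markers, whose summed level was 19400 to 19760 CPM at D0, 5830 to 5901 CPM after RANKL, and 12380 to 12570 CPM when acetate was added. Most of each sum was Lyz2, at 12803 and 12539, then 3924 and 3967, then 9755 and 9645 CPM. Single markers differed with acetate, as group means were 1488, 62.1 and 106.5 CPM for Mrc1 and 235.9, 98.2 and 309.1 CPM for Cd14. In the same order 12 osteoclast genes summed to 103 to 108, 3922 to 3944 and 1232 to 1291 CPM. Both sums moved with the groups, and their part in the results on the MYC network was not tested. In these bulk libraries fewer cells of a type and less RNA per cell cannot be told apart.

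The comparison of RANKL with D0 asks how the network stood after 1 day of the osteoclast stimulus. Both MYC paralogues that were expressed rose, the MXD genes split, and Max, the shared partner, was not called. Of the 9 members, 4 rose (Myc, Mycl, Mxd1 and Mga), 1 fell (Mxd4), and Max, Mxi1, Mnt and Mlx did not pass the test. Calls were common among all genes here: 66.3% of the genes tested were called, 32.8% higher and 33.5% lower, so 5 calls among 9 members is near that background. Library values of 6 members did not overlap between D0 and RANKL (66.7%), against 81.4% of all genes tested. The median absolute log2 fold change of all genes tested was 0.46.

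Myc (chr15:61985391-61990374, plus strand, GRCm38, GENCODE M21) encodes c-MYC, the paralogue found in most dividing cells. Its libraries stood at 54.9 and 59.1 CPM at D0, at 201 and 201 CPM with RANKL, and at 192 and 201 CPM when acetate was added. All day-1 libraries lay above both D0 libraries, and the acetate libraries reached the level of the RANKL libraries. The rise with RANKL was 3.53-fold, or 1.82 ± 0.06 on the log2 scale (edgeR's quasi-likelihood test, adjusted p = 1.24e-24).

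Mycl (chr4:122995652-123002485, plus strand), which encodes L-MYC, went from no reads to a high level. Neither D0 library held a single count. The RANKL libraries held 1217 and 1156 counts (104 and 104 CPM), and the libraries with RANKL and acetate 919 and 854 counts (89.1 and 83.4 CPM). Against a floor of 3 counts over the D0 group, Mycl was at least 681-fold higher with RANKL and at least 565-fold higher with RANKL and acetate (edgeR's quasi-likelihood test, adjusted p = 7.05e-29 and 1.58e-27). The third paralogue, Mycn, had 2 counts in the second RANKL library, 2 in the second acetate library and 0 in the others, too few for the low-count filter.

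Because MYCL is known from dendritic cells, markers of that cell type were set beside it. The 10 dendritic cell markers summed to 8.48 to 9.41 CPM at D0, 8.88 to 10.3 CPM after RANKL, and 8.99 to 9.40 CPM when acetate was added, and 7 of the 10 were under 1 CPM in every library. The sum stayed in 1 range, but single markers moved with RANKL. Itgax rose from 2.34 to 4.35 CPM in group means (0.90 ± 0.33, edgeR's quasi-likelihood test, adjusted p = 0.0159) and Batf3, at 3.44 CPM at D0 and 0.214 CPM with RANKL, fell (-3.91 ± 0.63, edgeR's quasi-likelihood test, adjusted p = 1.87e-06). The Itgax libraries stood at 2.28 and 2.41 CPM at D0 and far apart with RANKL, at 5.74 and 2.96 CPM. Dpp4 was not called, and the other 7 were too low to pass the filter. Xcr1, Clec9a and Ccr7 were among these 7, with means of 0.204, 0.259 and 0.149 CPM at D0 and 1.28, 0.661 and 0.661 CPM with RANKL, each higher in both RANKL libraries. The part of these markers in the level of Mycl was not tested. Markers of other cell types moved too. The B cell markers summed to 21.6 and 28.7 CPM at D0, 2.83 and 3.32 CPM after RANKL, and 4.07 and 4.88 CPM when acetate was added, led by the antibody gene Ighm, which fell by 3.37 ± 0.21 with RANKL. The neutrophil markers summed to 182 and 188, then 142 and 145, then 142 and 138 CPM, with 5 of 6 tested called lower with RANKL. Of all genes tested, 32.8% were called higher and 33.5% lower with RANKL. Stromal markers summed to 6.63 and 6.38, then 8.49 and 8.52, then 5.235 and 5.08 CPM, so the groups did not overlap. Runx2, 1 of 3 tested, was called higher with RANKL, from 0.451 to 2.37 CPM in group means. Col1a1 was called lower with acetate against D0, at 1.46 against 2.84 CPM. T and NK cell and erythroid markers summed to at most 0.872 and 0.942 CPM in any library. Their part in the results was not tested either.

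The bases just before the RefSeq start of Mycl are shown because no other member was without reads at D0. They lie within the GENCODE gene, whose transcript Mycl-204 starts further upstream, at 122995652. The 250 bases before the RefSeq start (GRCm38.p6, chr4:122995681-122995930, plus strand), 5′ to 3′, were as follows.
Mycl: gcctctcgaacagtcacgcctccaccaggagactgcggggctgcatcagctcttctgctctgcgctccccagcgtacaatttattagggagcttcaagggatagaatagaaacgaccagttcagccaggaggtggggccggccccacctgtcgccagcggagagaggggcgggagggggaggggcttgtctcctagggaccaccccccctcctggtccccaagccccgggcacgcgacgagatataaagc
The 300-base window that ends 50 bases after the start held no E-box (CACGTG), no AP-1 site (TGANTCA) and no interferon-stimulated response element on either strand. Of 32851 such windows over all genes, 7.15% held the E-box, 7.81% the AP-1 site and 3.44% the response element. Bases before the start of Mycl-204 were not searched.

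Reads of Mycl were assigned to a few of its annotated transcripts. Mycl-202 took 69.7% and 77.0% of the gene's TPM, a length-corrected level, in the RANKL libraries and 78.6% and 66.7% in the acetate libraries. Mycl-201, whose annotated start lies downstream of that of Mycl-202, took 26.2% and 21.02%, then 21.4% and 27.4%. The shares overlapped between the groups, and such shares are estimates, since the transcripts overlap.

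**Figure D1:**
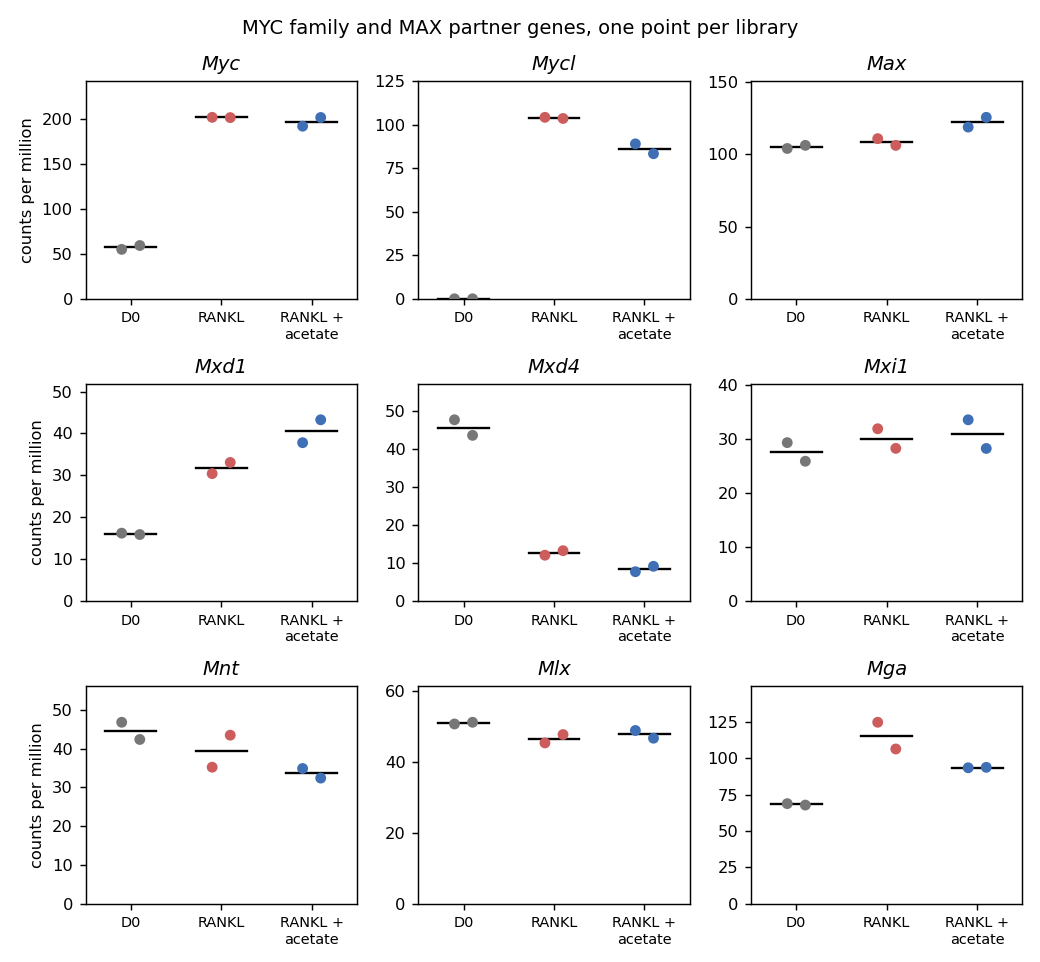
CPM (vertical axis, starting at 0) of the 9 members in each library, by group, with points for libraries and lines for group means. Mycl is at 0 at D0 and at 104 CPM in both RANKL libraries, Mxd4 is highest at D0 and lowest in the acetate libraries, and Mxi1 libraries overlap in all groups.

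Max (chr12:76937269-76962201, minus strand) encodes the partner that the MYC proteins need to bind DNA, and with which the MXD, MNT and MGA proteins also pair. Its libraries stood at 104 and 106 CPM at D0, 111 and 106 CPM after RANKL, and 119 and 126 CPM when acetate was added. D0 and RANKL overlapped, with a log2 difference of 0.05 ± 0.06 (edgeR's quasi-likelihood test, adjusted p = 0.488). Both acetate libraries were above the other 4.

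The MXD genes encode repressive partners of MAX, MXD1 being known for its rise in differentiating myeloid cells. Mxd1 (chr6:86647042-86669161, minus strand) stood at 16.2 and 15.9 CPM at D0, 30.4 and 33.1 CPM after RANKL, and 37.8 and 43.3 CPM when acetate was added. The groups did not overlap, and the rise with RANKL was 0.98 ± 0.12 (edgeR's quasi-likelihood test, adjusted p = 3.85e-09).

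Mxd4 (chr5:34173883-34187720, minus strand) went the other way, from 47.6 and 43.5 CPM at D0 to 12.1 and 13.3 CPM after RANKL, and 7.76 and 9.18 CPM when acetate was added. The groups again did not overlap. Mxd4 was 3.60-fold lower with RANKL, a log2 fold change of -1.85 ± 0.12 (edgeR's quasi-likelihood test, adjusted p = 1.39e-15). An antisense gene, Gm42846, overlaps Mxd4, and it held 2 to 7 counts per library. Mxd3, another MXD gene that is not among the 9 members, fell with RANKL as well, from 7.76 to 2.20 CPM in group means (-1.81 ± 0.27, edgeR's quasi-likelihood test, adjusted p = 5.37e-07).

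Mxi1 (chr19:53310518-53375810, plus strand), which encodes the MXD protein also called MXD2, had 29.4 and 26.0 CPM at D0, 32.0 and 28.3 CPM after RANKL, and 33.6 and 28.3 CPM when acetate was added. Its libraries overlapped in every comparison, and the log2 difference of RANKL from D0 was 0.12 ± 0.11 (edgeR's quasi-likelihood test, adjusted p = 0.335). Mnt (chr11:74830920-74845725, plus strand), a MAX-binding repressor expressed in most cells, had 46.8 and 42.4 CPM at D0, 35.2 and 43.5 CPM after RANKL, and 34.9 and 32.4 CPM when acetate was added. The second RANKL library lay among the D0 values, and the log2 difference was -0.18 ± 0.10 (edgeR's quasi-likelihood test, adjusted p = 0.0924). Without that library it was -0.34 and called (edgeR's quasi-likelihood test, adjusted p = 0.0133).

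Mlx (chr11:101087277-101092207, plus strand), the partner of MondoA and ChREBP, had 50.7 and 51.2 CPM at D0, 45.4 and 47.7 CPM after RANKL, and 48.9 and 46.7 CPM when acetate was added. Both RANKL libraries were below both D0 libraries, but the log2 difference of -0.13 ± 0.08 was not called (edgeR's quasi-likelihood test, adjusted p = 0.148), and its sign turned to 0.10 on log2(FPKM + 0.1). Psmc3ip overlaps Mlx on the opposite strand with 104 to 235 counts per library, and strand use in counting is not given in the sources used here. Mlxip, which encodes MondoA, rose with RANKL from 58.0 to 91.1 CPM in group means (0.65 ± 0.07, edgeR's quasi-likelihood test, adjusted p = 2.40e-10). Mlxipl had 2 and 5 counts at D0 and 0 in the other 4 libraries, and did not pass the filter.

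Mga (chr2:119897228-119969581, plus strand) stood at 68.8 and 67.8 CPM at D0, 125 and 106 CPM after RANKL, and 93.4 and 93.8 CPM when acetate was added. The 3 groups did not overlap, with RANKL the highest and D0 the lowest. The rise with RANKL was 0.76 ± 0.07 (edgeR's quasi-likelihood test, adjusted p = 6.46e-12). Of 11 other genes of the PRC1.6 complex, 6 rose with RANKL and 4 fell, where 32.8% of all genes tested were called higher and 33.5% lower. Their median log2 fold change was 0.31 against 0.01 for all genes tested. Its Polycomb subunit gene Pcgf6 rose by 1.15 ± 0.16 and the deacetylase gene Hdac2 by 0.75 ± 0.06, while Yaf2 and Rybp, which encode a related pair of adaptor proteins, fell by 0.68 ± 0.11 and 0.37 ± 0.08.

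Promoter windows from RefSeq (GRCm38.p6) matched 8 of the 9 members (all but Myc) with 10 windows. An E-box, the sequence that MAX pairs bind, was in 4 of the 10, against 7.15% of all windows. The 4 were those of Max, Mlx, Mnt and Mxd4, of which Mxd4 fell with RANKL and the other 3 were not called. Each is printed here with the E-box in capitals, 5′ to 3′ on the gene's strand, from chr12:76962237-76962260, chr11:101087241-101087264, chr11:74830792-74830815 and chr5:34187915-34187938.
Max: gagcccggtCACGTGttagggggc
Mlx: gggttggatCACGTGactgagcct
Mnt: cacccaagcCACGTGtgcgcgcgc
Mxd4: ctgggccacCACGTGctgttgcta
The E-box began 3 bases before the start in Max, 40 in Mlx, 123 in Mnt and 219 in Mxd4. No member's window held the AP-1 site or the response element. A match is a description of the letters and not of binding. The longer stretch of Mxd4, the member that fell, is given as 250 bases before its start (chr5:34187711-34187960, minus strand).
Mxd4: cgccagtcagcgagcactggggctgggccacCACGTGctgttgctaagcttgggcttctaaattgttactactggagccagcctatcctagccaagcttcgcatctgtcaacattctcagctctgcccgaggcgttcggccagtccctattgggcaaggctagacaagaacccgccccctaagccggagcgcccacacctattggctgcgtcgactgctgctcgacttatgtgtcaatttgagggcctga

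Levels of different genes were set side by side in TPM. At D0 the order was Max (83.3 ± 1.77 TPM, SD, n = 2), Mlx (49.2 ± 2.12), Myc (40.5 ± 3.35), Mxd4 (19.0 ± 0.962), Mga (16.8 ± 2.61), Mnt (14.2 ± 0.898), Mxi1 (7.99 ± 0.644), Mxd1 (5.03 ± 0.0354) and Mycl at 0. With RANKL it was Myc (141.8 ± 0.212 TPM), Max (86.0 ± 3.55), Mlx (48.9 ± 2.89), Mycl (47.8 ± 1.34), Mga (24.4 ± 1.85), Mnt (12.5 ± 1.71), Mxd1 (9.94 ± 0.467), Mxi1 (8.73 ± 0.870) and Mxd4 (5.59 ± 0.884). Thus Myc passed Max, Mycl went from last place to the level of Mlx, and Mxd4 went to last place. In that order the libraries of Mxd4 and Mga overlapped at D0 and those of Mlx and Mycl with RANKL, while other neighbours were separate over their 2 libraries. The place of Mga depends on transcript assignment, since short transcripts hold much of its TPM. At D0 the processed transcripts Mga-208 and Mga-209 took 13.1% and 25.4%, and 25.8% and 20.3%, of its TPM. The protein-coding Mga-201 took 36.5% and 30.7% of its TPM at D0 but 68.0% and 71.6% of its counts.

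With RANKL and acetate the order was Myc (138.1 ± 2.96 TPM), Max (95.6 ± 3.40), Mlx (55.2 ± 18.9), Mycl (39.1 ± 0.431), Mga (20.4 ± 0.750), Mxd1 (12.5 ± 1.17), Mnt (10.6 ± 0.573), Mxi1 (8.81 ± 1.03) and Mxd4 (3.47 ± 0.799), with no neighbours overlapping. Mxd1 and Mnt had changed places relative to RANKL alone. The spread of Mlx went with its transcript assignment, as the acetate libraries held 504 and 478 counts but 68.5 and 41.8 TPM. In the first of them the short processed transcripts Mlx-204 and Mlx-206 were given 17.9 and 16.0 TPM, against 3.29 and 0 TPM in the second. Counts, on which edgeR's tests rest, showed no such gap.

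**Figure D2:**
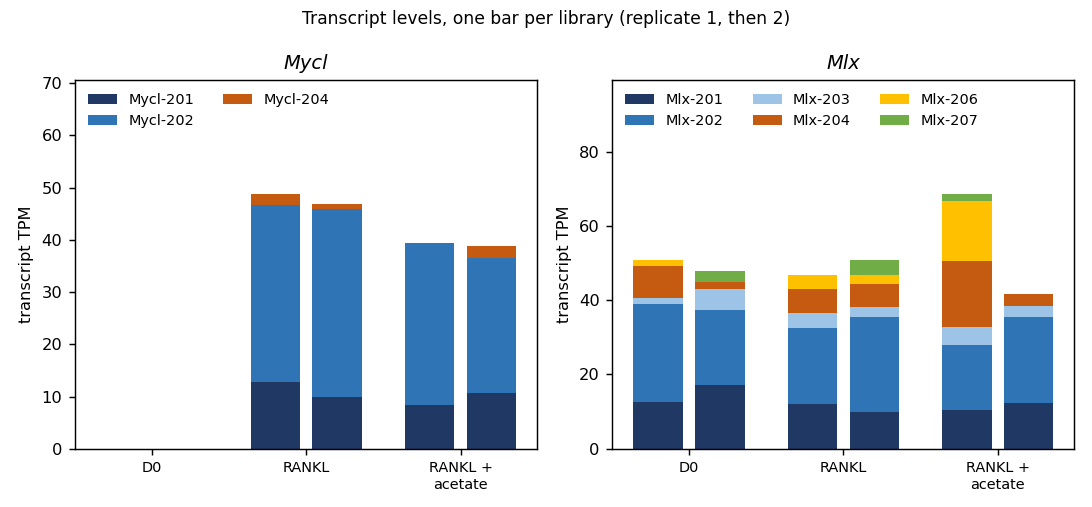
TPM of each annotated transcript of Mycl and Mlx, stacked, with a bar for each library (replicate 1, then replicate 2). The first acetate library has the tallest Mlx bar, at 68.5 TPM, through Mlx-204 and Mlx-206, while Mycl is led by Mycl-202 in every library that expresses it.

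Mycl against Myc was described by its share of the summed TPM of Myc, Mycl and Mycn. The share was 0 in both D0 libraries, 25.6% and 24.8% after RANKL, and 22.5% and 21.7% when acetate was added. Both acetate libraries lay below both RANKL libraries, a difference given as values that were not tested. On CPM, which favours the longer gene, the mean shares were 34.1% and 30.5%.

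Sums over the MYC paralogues and over the repressive partners were formed after the values had been seen, and are descriptions. The MYC paralogues together stood at 38.1 and 42.8 TPM at D0, 190 and 189 TPM after RANKL, and 175 and 179 TPM when acetate was added. Mxd1, Mxd3, Mxd4, Mxi1 and Mnt together stood at 55.1 and 56.8, then 37.6 and 41.5, then 39.0 and 39.6 TPM. The ratio of the sums was 0.691 and 0.754 at D0, 5.07 and 4.56 after RANKL, and 4.49 and 4.53 when acetate was added. The RANKL and acetate libraries were close in this ratio, whereas the makeup of the repressive sum differed. Mxd4 made up 33.9% ± 1.02 of it at D0, 14.1% ± 1.26 with RANKL and 8.81% ± 1.95 with acetate (SD, n = 2), and Mxd1 8.98% ± 0.248, 25.2% ± 0.562 and 31.9% ± 2.67. These are transcript levels, and say nothing of protein.

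**Figure D3:**
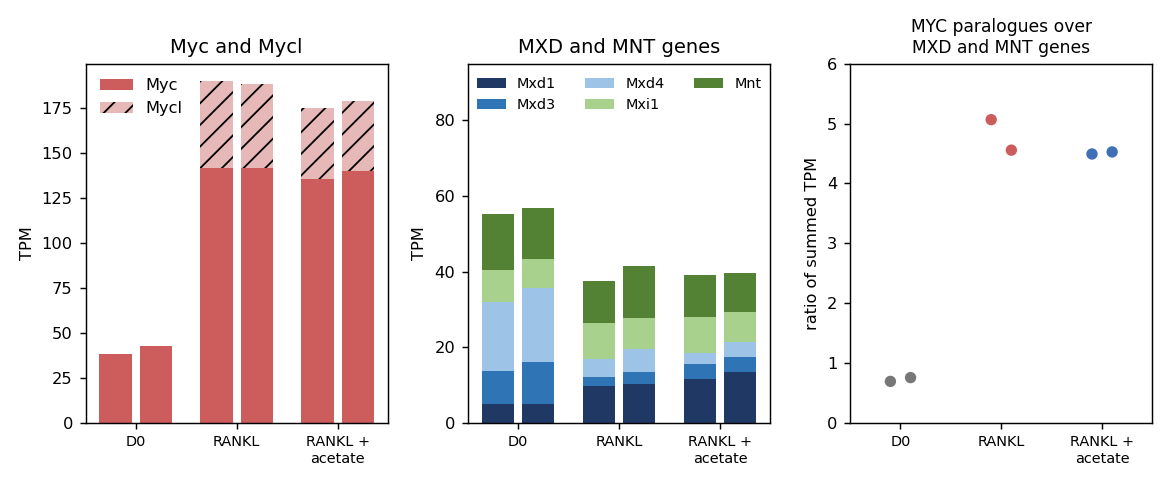
Summed TPM of Myc and Mycl (left) and of the MXD and MNT genes (middle), a bar for each library, and the ratio of the 2 sums with a point for each library (right, Mycn included). The ratio is 0.691 and 0.754 at D0 and between 4.49 and 5.07 in the 4 day-1 libraries.

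The comparison of RANKL with acetate against RANKL alone asks what acetate changed in stimulated cells. It uses the same RANKL libraries as the comparison with D0, so a RANKL library that is high or low by chance moves both in opposite directions. Mycl fell by a small amount while Myc was not called, and Mxd4 and Mxd1 moved further apart. Of the 9 members, 2 rose (Max and Mxd1), 3 fell (Mycl, Mxd4 and Mga) and 4 were not called, where 30.4% of all genes tested were called, 16.7% higher and 13.7% lower. Library values of 6 members did not overlap (66.7%), against 62.9% of all genes tested. The 5 calls were 0.58 or less in size on the log2 scale, with a median absolute log2 fold change of 0.18 over all genes tested. None of the 9 was called by limma on log2(TPM + 0.1), where 1 was higher and 1 lower at an unadjusted p under 0.05.

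Mycl fell by 0.27 ± 0.06 on the log2 scale with acetate (edgeR's quasi-likelihood test, adjusted p = 0.00136), both acetate libraries (89.1 and 83.4 CPM) lying below both RANKL libraries. On log2(TPM + 0.1) the difference was -0.29 and not called (limma, adjusted p = 0.248). For Myc it was -0.04 ± 0.05 (edgeR's quasi-likelihood test, adjusted p = 0.631). The difference between the changes of Mycl and Myc was not tested.

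Mxd4 fell by 0.58 ± 0.15 (edgeR's quasi-likelihood test, adjusted p = 0.00369) and Mxd1 rose by 0.35 ± 0.10 (edgeR's quasi-likelihood test, adjusted p = 0.00604). The call of Mxd4 ended without the second RANKL library or without the first acetate library (edgeR, adjusted p = 0.0520 and 0.0722). That of Mxd1 ended without the first RANKL library or the second acetate library and with DESeq2 (adjusted p = 0.0961 and 0.147 by edgeR, and 0.0730 by DESeq2). Max rose by 0.17 ± 0.06 (edgeR's quasi-likelihood test, adjusted p = 0.0179), which ended without the second RANKL or the second acetate library and with DESeq2 (adjusted p = 0.148 and 0.199 by edgeR, and 0.121 by DESeq2).

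Mga fell by 0.30 ± 0.06 with acetate (edgeR's quasi-likelihood test, adjusted p = 0.000341), a call that ended without the first RANKL library, the highest of the 6 at 125 CPM (edgeR, adjusted p = 0.0612). Mnt stood at -0.22 ± 0.10, Mxi1 at 0.04 ± 0.11 and Mlx at 0.04 ± 0.08 (edgeR's quasi-likelihood test, adjusted p = 0.0892, 0.835 and 0.767). Without the first RANKL library Mnt was at -0.37 and called (edgeR, adjusted p = 0.0196).

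RANKL with acetate was also set against D0, a comparison that uses the D0 libraries of the RANKL comparison and the acetate libraries of the last one. In it 5 members rose (Myc, Mycl, Max, Mxd1 and Mga), 2 fell (Mxd4 and Mnt) and Mxi1 and Mlx were not called, where 60.7% of all genes tested were called, 30.3% higher and 30.4% lower. Myc was higher by 1.79 ± 0.06, Mxd1 by 1.33 ± 0.11 and Mga by 0.45 ± 0.07, and Mxd4 was lower, at -2.43 ± 0.13 (edgeR's quasi-likelihood test, adjusted p = 5.71e-24, 2.48e-12, 1.04e-06 and 1.38e-17). Max was called here at 0.22 ± 0.06 and Mnt at -0.41 ± 0.10 (edgeR's quasi-likelihood test, adjusted p = 0.00133 and 0.000669). Mnt was not called on log2(FPKM + 0.1), nor Mga on log2 TPM (limma, adjusted p = 0.107 for Mnt and 0.121 for Mga with a pseudocount of 0.1).

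**Figure D4:**
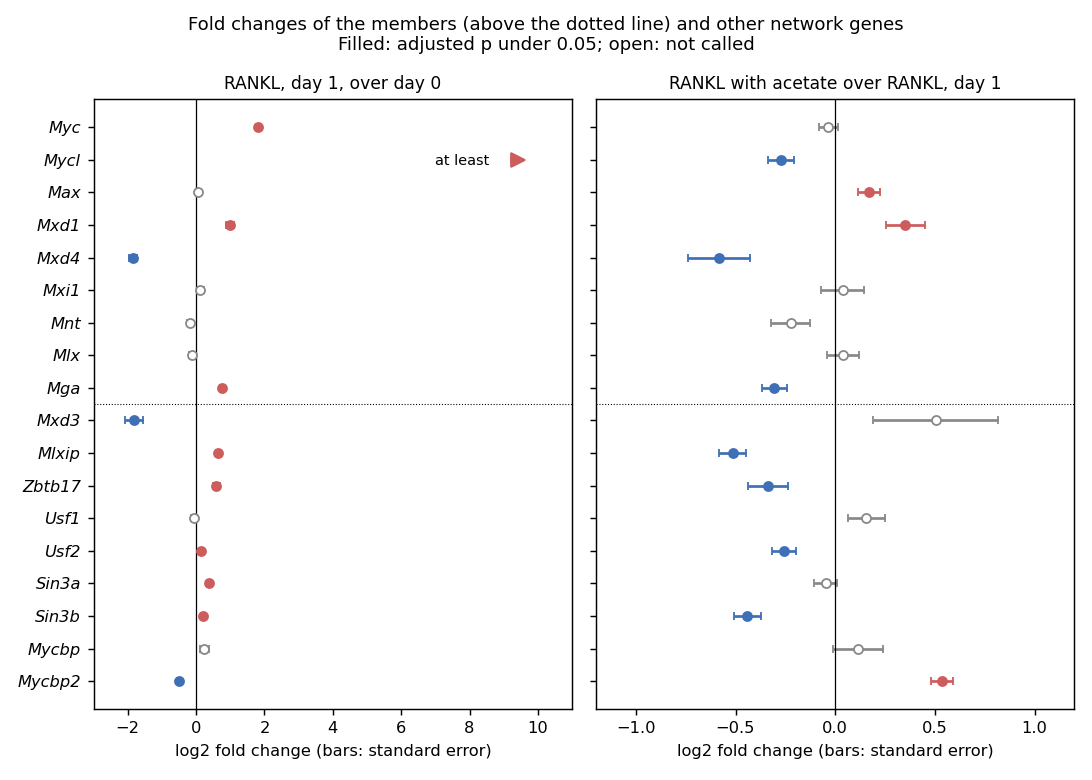
Log2 fold changes (horizontal axes, which differ in scale) of the 9 members and of 9 other network genes for RANKL over D0 (left) and RANKL with acetate over RANKL (right), with bars for the SE and filled points for calls. Mycl on the left is a lower bound of 9.41 drawn as an arrowhead, and on the right no member lies beyond 0.58 in size.

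Of 11 other listed genes of the network, 9 were tested, and with RANKL 5 rose (Mlxip, Zbtb17, Usf2, Sin3a and Sin3b), 2 fell (Mxd3 and Mycbp2) and Usf1 and Mycbp were not called. Of all genes tested, 66.3% were called, 32.8% higher and 33.5% lower. Zbtb17, which encodes the factor MIZ1 through which MYC represses genes, rose by 0.59 ± 0.10, and Sin3a, which encodes a corepressor of the MXD proteins, by 0.38 ± 0.06. On log2(TPM + 0.1) Sin3a was at 0.04 (limma, adjusted p = 0.910), its D0 libraries standing apart at 42.1 and 22.1 TPM. The calls of Usf2 and Sin3b were small, at 0.16 ± 0.06 and 0.20 ± 0.07, and ended with DESeq2 (adjusted p = 0.0874 and 0.0528). Without any single D0 or RANKL library Usf2 was not called (edgeR, adjusted p from 0.0537 to 0.0753), nor was Sin3b without the second D0 or the second RANKL library (edgeR, adjusted p = 0.0870 and 0.0646). With acetate against RANKL, Mlxip fell by 0.51 ± 0.07, Sin3b by 0.44 ± 0.07, Zbtb17 by 0.34 ± 0.10 and Usf2, which encodes another E-box factor, by 0.26 ± 0.06. The call of Zbtb17 ended without the second RANKL library or the first acetate library (edgeR, adjusted p = 0.189 and 0.128), with DESeq2 (adjusted p = 0.0773) and on the TPM and FPKM scales (limma, adjusted p from 0.245 to 0.264). Mycbp2, which encodes a large ubiquitin ligase first found as a MYC-binding protein, fell with RANKL by 0.51 ± 0.06 and rose with acetate by 0.54 ± 0.06 (edgeR's quasi-likelihood test, adjusted p = 9.43e-10 and 1.29e-09). Its group means were 133.6, 94.0 and 136.3 CPM, and those of Mlxip 58.0, 91.1 and 63.8 CPM, in the order D0, RANKL, RANKL with acetate.

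Genes that MYC is known to raise were counted in a list of 60, most of them for ribosome production. Like the other gene lists here, it was chosen with earlier results of these data known, so its counts are descriptions. With RANKL 58 rose, 1 fell (Tfrc) and 1 was not called (Tmem97), with a median log2 fold change of 1.04 against 0.01 for all genes tested, of which 32.8% were called higher. Ncl, which encodes the nucleolar protein nucleolin, stood at 746 and 769 CPM at D0, 2305 and 2280 CPM with RANKL and 2024 and 1980 CPM with acetate. Npm1, which encodes another abundant nucleolar protein, stood at 473 and 508, then 1586 and 1586, then 1364 and 1305 CPM. For both genes the 3 groups did not overlap, with the acetate libraries between the others but nearer to RANKL. Hspd1, a mitochondrial chaperone gene, and Mybbp1a, a nucleolar protein gene, rose with RANKL by 1.46 ± 0.03 and 1.52 ± 0.04.

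With acetate against RANKL, 34 of the 60 fell, 3 rose (Ldha, Odc1 and Tcof1) and 23 were not called, with a median of -0.17 against 0.00 for all genes tested, of which 13.7% were called lower. Npm1 fell by 0.25 ± 0.03 and Hspd1 by 0.23 ± 0.03 (edgeR's quasi-likelihood test, adjusted p = 3.02e-07 and 8.20e-07). Odc1, which encodes the first enzyme of polyamine synthesis and is a classical MYC target, went the other way, from 380 and 361 CPM with RANKL to 621 and 616 CPM with acetate (0.74 ± 0.04, edgeR's quasi-likelihood test, adjusted p = 3.09e-17). Tfrc, the transferrin receptor gene, fell both with RANKL (-0.33 ± 0.04) and further with acetate (-0.34 ± 0.04). The number lowered by acetate was 21 without the first acetate library and 18 on log2(TPM + 0.1). Against D0, 58 of the 60 were higher with RANKL and acetate, with a median of 0.89, where 30.3% of all genes tested were called higher.

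Genes known to be repressed through MYC moved mostly the other way with RANKL. Of 14 listed, 11 were tested, and 8 fell, 1 rose (Gadd45b) and 2 were not called, with a median of -1.21, where 33.5% of all genes were called lower. Cdkn1a, which encodes the cell cycle inhibitor p21, stood at 341 and 337 CPM at D0, 144 and 129 CPM with RANKL and 198 and 177 CPM with acetate. Cdkn2b, which encodes another cell cycle inhibitor, fell from 11.4 and 10.4 to 3.43 and 3.59 CPM and was lowest with acetate, at 1.16 and 0.879 CPM. Itgal, an integrin gene of leukocytes, fell by 1.97 ± 0.07. With acetate against RANKL 4 rose (Cdkn1a, Gadd45a, Itgal and Itgb1), 1 fell (Cdkn2b) and 6 were not called. Of all genes tested in this comparison, 16.7% were called higher and 13.7% lower. Of the 10 macrophage markers, 10 were lower with RANKL and 10 higher with acetate, and their part in these changes was not tested.

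Of 17 genes for MYC cofactors and turnover, 11 rose with RANKL, 3 fell and 3 were not called, with a median of 0.28, where 32.8% of all genes tested were called higher and 33.5% lower. Tfap4, a transcription factor gene that MYC is known to activate, went from 7.72 and 8.69 CPM to 33.4 and 35.6 CPM with RANKL and to 21.6 and 23.8 CPM with acetate. Bin1, which encodes a MYC-interacting adaptor, went from 453 and 433 CPM to 144 and 151 CPM and to 193 and 215 CPM. In both genes the acetate libraries lay between D0 and RANKL. Ruvbl2, an ATPase gene of chromatin remodelling complexes, rose with RANKL by 1.18 ± 0.06. With acetate against RANKL, 2 of the 17 rose (Usp28 and Bin1), 5 fell and 10 were not called, where 16.7% of all genes tested were called higher and 13.7% lower. In the PRC1.6 list 4 rose with acetate by edgeR (Cbx3, Hdac1, Rybp and Yaf2), 0 fell and 7 were not called. DESeq2 and limma on log2(TPM + 0.1) each called 2 higher and 0 lower. At an unadjusted p under 0.05, 1 was lower by edgeR, 0 by DESeq2 and 1 by limma on log2(TPM + 0.1).

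Of 10 listed targets of the MLX partners, 9 were tested, and 3 rose with RANKL and 5 fell, where 32.8% of all genes tested were called higher and 33.5% lower. Their median was -0.22. Txnip, the glucose-responsive gene best known as a MondoA target, stood at 389 and 376 CPM at D0, 132 and 129 CPM with RANKL and 166 and 161 CPM with acetate. It fell by 1.55 ± 0.04 with RANKL and rose by 0.33 ± 0.05 with acetate, so that Txnip and Mlxip moved in opposite directions in both comparisons. Arrdc4, a paralogue of Txnip, rose with RANKL by 1.10 ± 0.18. Elovl6 and Fasn, both of fatty acid synthesis, fell by 0.78 ± 0.10 and 0.22 ± 0.04.

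**Figure D5:**
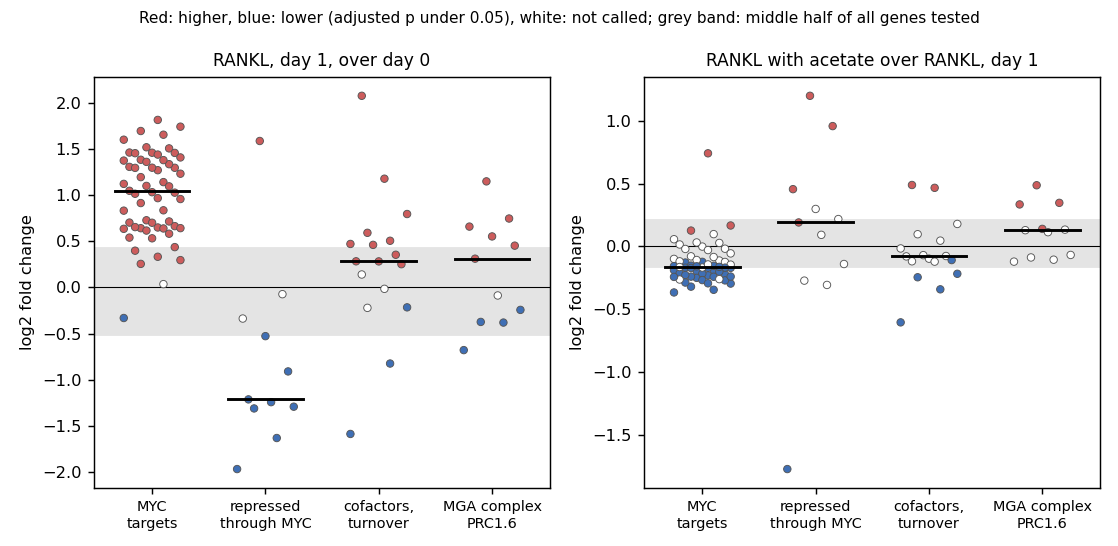
Log2 fold changes of the tested genes of 4 lists for RANKL over D0 (left) and RANKL with acetate over RANKL (right), on axes of different scale, with a point for each gene, lines for list medians and a grey band for the middle part of all genes tested (from -0.51 to 0.43 left and from -0.16 to 0.21 right). The median of the MYC targets lies at 1.04 on the left and at -0.17 on the right.

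Genes whose pattern was most like that of Mycl and Myc were found by the distance between centred log2 CPM over the 6 libraries, among the 8867 genes whose mean reached 10 CPM. Nearest to Mycl were Scin (distance 1.33), Vegfc (1.39), Zfp462 (2.05), Htra1 (3.44) and Ocstamp (4.0). Scin, Vegfc and Zfp462 also had 0 counts at D0, and their means were 112, 55.7 and 39.7 CPM with RANKL and 40.3, 34.0 and 21.6 CPM with acetate. Mycl stood at 104 and 86.3 CPM in those groups, and the difference between its change and theirs was not tested. Because of the counts of 0, distances from Mycl depend on the prior count of 0.5 added before taking logs. Nearest to Myc were Slc16a1 (0.10), Sestd1 (0.12), Gbp7 (0.14), Casp4 (0.15) and Gsap (0.17). Slc16a1, which encodes the monocarboxylate transporter MCT1, stood at 26.5 and 29.4 CPM at D0, 94.0 and 92.0 CPM with RANKL and 90.6 and 92.9 CPM with acetate.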

How the data were processed

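The members and gene lists were chosen with earlier results of these data known. Per the labels, RNA was extracted with a column kit with DNase treatment and made into SMARTer mRNA libraries. Per the submitters' processing notes, Trimmomatic 0.39, STAR, RSEM 1.3.1 and DESeq2 1.26.0 were used with GRCm38. The deposited tables hold gene and transcript expected counts, TPM and FPKM. All 54 counts of the 9 members were whole within 0.005. Counts were rounded, genes with low counts were removed (filterByExpr of edgeR 4.0.16, R 4.3.3, minimum count 10, minimum total 15), and TMM factors were 0.952 to 1.037. A quasi-likelihood model with a mean for each group was fitted over all 6 libraries (residual degrees of freedom 3, prior 29.5). The same procedure was then run on simulated counts that used the gene means and common dispersion of that fit. Alternatives were DESeq2 1.42.0, limma-voom and limma-trend (3.58.1) on log2 TPM and log2 FPKM, other scalings and filters, a replicate block and each library left out. TPM and FPKM from the authors depend on transcript assignment. The RANKL and acetate comparisons share the RANKL libraries. Within groups the chi-square per gene between libraries was 1.93 to 2.60, above sampling noise, so none was a copy of the other's reads. This value cannot say whether the libraries of a group came from the same RNA or culture. Gene positions come from GENCODE M21, which held 98.8% of the gene IDs. All 9 members, all other network genes, up to 4 genes of each further list with the smallest adjusted p in each comparison, and 5 genes nearest to Mycl and to Myc were to be named, and others appear where they complete a small count. The floor of 3 counts covers counting error only.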

Additional observations from a re-analysis of the deposited data

How the results depend on the processing

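For the members, 422 of 459 repeated values kept their direction and their side of the threshold, 27 fell short of it, 3 newly passed it and 7 changed sign; for the other network genes tested, 404, 41, 3 and 11 did. The calls of Myc, Mycl, Mxd1, Mxd4 and Mga with RANKL against D0 held under all 17 alternatives. Of the 27 member values that fell short, 24 were in acetate against RANKL and 3 in acetate against D0, while for the other network genes 13, 6 and 22 fell short in RANKL against D0, acetate against RANKL and acetate against D0. With acetate against RANKL, DESeq2 called 3 members, 0 of them higher, against 2 at an unadjusted p under 0.05. Limma on log2(TPM + 0.1), log2(TPM + 1) and log2(FPKM + 0.1) called 0 members, 0 higher and 0 lower, with 1, 2 and 1 higher and the same numbers lower at an unadjusted p under 0.05. On those 3 scales 1, 1 and 1 of the MYC targets were called higher and 18, 20 and 21 lower. Over all genes this comparison gave 3717 calls by edgeR, 2453 by DESeq2 and 1843, 1908 and 1894 on the 3 scales. With acetate against D0, 1 member was called lower on log2(FPKM + 0.1). From CPM the mean Mycl share was 34.06% with RANKL and 30.52% with acetate. From TPM the means were 25.2% and 22.05%, and without 1 library the TPM share was 24.8% to 25.6% and 21.65% to 22.45%.

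Leaving out each library in turn, members called with RANKL against D0 numbered 5 to 6, with 4 higher and 1 to 2 lower, 2 being without the second RANKL library. With acetate against RANKL they numbered 3 to 5, with 0 to 2 higher and 2 to 3 lower, and MYC targets 2 to 3 higher and 21 to 34 lower, 21 being without the first acetate library. With acetate against D0 they numbered 7 in every case, 5 higher and 2 lower.

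Sign changes, all of uncalled differences, were as follows on log2(TPM + 0.1), log2(TPM + 1) and log2(FPKM + 0.1). With acetate against D0, Mlx was at 0.12, 0.12 and 0.22 and Mycbp2 at -0.17, -0.16 and -0.07, and with acetate against RANKL, Sin3a was at 0.30, 0.29 and 0.28. On log2(FPKM + 0.1) alone, Mlx was at 0.10 and Usf1 at 0.11 with RANKL against D0, and Mxi1 was at -0.00 and Usf1 at -0.01 with acetate against RANKL. Usf1 with RANKL against D0 was at 0.00 with upper-quartile factors, 0.01 without the first RANKL library and -0.14 without the second. Mxi1 with acetate against RANKL was at -0.05 without the second RANKL library and, without an acetate library, from -0.09 (the first) to 0.15 (the second), and Mycbp2 with acetate against D0 at -0.02 and 0.08 in the same order. The cause was not tested.

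Deviations of libraries with the same number were hardly correlated over genes (correlations of -0.055, 0.010 and 0.019). Counting noise enters these deviations, so the correlations cannot say whether such libraries share an animal or culture. Only the first library of each group is numbered in its title, and nothing in the labels pairs the libraries. A fit with the replicate number as a block called 8028, 3611 and 7371 genes in the 3 comparisons, against 8106, 3717 and 7419 without it, and called 5, 5 and 7 members, as without it. The planned comparison of member proteins was not run. Mycn and Mlxipl, with at most 2 and 5 counts in a library, did not pass the low-count filter. Without it neither was called in RANKL with acetate against D0 (edgeR, adjusted p = 0.519 for Mycn and 0.124 for Mlxipl) or in the other comparisons.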
